A study of Mus musculus with 6 samples.

Results

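Calcium release and store-operated calcium entry in skeletal muscle use, among others, the 10 genes *Cacna1s*, *Stac3*, *Ryr1*, *Jph1*, *Casq1*, *Stim1*, *Stim2*, *Orai1*, *Orai2* and *Orai3* described here. They were chosen by name from 20972 gene symbols on the array, and their 16 non-control probes were found by the RefSeq transcript that each probe carries. Total RNA of mouse muscle was labelled with the dye Cy3 and hybridised to 6 Agilent arrays. Of 3 groups with 2 arrays each, MDX_JJ101 held MDX mice given JJ101, a bioceramic water per the labels, MDX_tap held MDX mice given tap water, and B10_tap held C57BL/10 mice given tap water. Each water was given for 10 months, and MDX mice carry a mutation of *Dmd* that removes full-length dystrophin from skeletal muscle and heart. The labels do not say whether the 2 replicates of a group came from separate mice, so p-values measure the spread between these arrays, which may be technical.

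In skeletal muscle, depolarisation of the transverse tubule moves a voltage sensor that is coupled directly to the ryanodine receptor of the sarcoplasmic reticulum, and the receptor then lets stored calcium out. Heart muscle uses other members of the same families, and there calcium that enters through the channel opens the receptor. When the store runs low, STIM proteins in its membrane sense the loss and open ORAI channels in the surface membrane, and this entry has been studied as a source of excess calcium in dystrophic fibres.

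All arrays lay on 1 slide. MDX_JJ101 lay in one slide row and the other groups in the other row, so row and JJ101 cannot be told apart; MDX_tap and B10_tap lay in different columns, so column and genotype cannot be told apart. The share of spots well above background was 42.5% to 43.8% in MDX_JJ101, 48.1% to 49.6% in MDX_tap and 51.4% to 51.6% in B10_tap. *Dmd*, the check of the MDX label, had a level of -1.50 and -1.74 in MDX_JJ101, -0.84 and -0.27 in MDX_tap, and 1.06 and 1.06 in B10_tap, where a level is the log2 of a probe's signal over the 75th percentile of its array. The MDX groups themselves differed in *Dmd*, which limits the check: MDX_JJ101 minus MDX_tap was -1.07 (SE 0.21, 2.1-fold, adjusted p = 0.0205 by limma). *Dmd* lay lower in both MDX groups than in B10_tap, with a difference of -2.68 (SE 0.21, 6.42-fold, adjusted p = 0.00645 by limma) for MDX_JJ101 and of -1.61 (SE 0.21, 3.06-fold, adjusted p = 0.0717) for MDX_tap. Without B10_tap replicate 1 or 2 the MDX_JJ101 value stayed -2.68 and its adjusted p was 0.0593 or 0.0544.

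The labelled tissue is gastrocnemius, a limb muscle. Of its 22 markers, 6 were called well above background on every array, 9 on some and 7 on none, the last being *Myod1*, *Myf5*, *Myog*, *Pax3*, *Lbx1*, *Mylpf* and *Chrne*. Of 13 heart markers, 12 passed that mark on every array and *Myl7* on 1. The summed limb muscle signal, on the linear scale and relative to the 75th percentile, was 9.37 and 10.4 in MDX_JJ101, 14.8 and 62.1 in MDX_tap, and 36.8 and 28.3 in B10_tap. The summed heart signal was 5042 and 4751 in MDX_JJ101, 3772 and 3844 in MDX_tap, and 3766 and 3759 in B10_tap. The markers that define limb muscle were thus in part missing on every array, while those of heart were measured, which goes against the tissue label. In such bulk RNA, fewer cells of a type and less RNA per cell cannot be told apart.

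All 10 genes were tested among 20870 genes and transcripts, and 7 of them were well above background on all 6 arrays; *Ryr1* was so on 4, *Stac3* on 5 and *Stim2* on 5. In MDX_JJ101 against MDX_tap, 36.1% of all genes passed limma's test at an adjusted p of 0.05, 19.9% higher and 16.1% lower. Of the 10 genes, 4 passed: *Cacna1s* and *Orai1* rose, both among the 7 genes measured on every array. The fitted differences of *Ryr1* and *Stac3* were negative, that of *Ryr1* on MDX_JJ101 levels not well above background. *Ryr1* and *Stac3* passed the filter on dim probes through the tap water groups, where they were higher, so their calls are given as values and not read against the background; without that filter both calls against MDX_tap ended (adjusted p = 0.0555 and 0.0585). In MDX_JJ101 against B10_tap, where 33.6% of all genes passed, *Cacna1s*, *Orai1*, *Ryr1* and *Stac3* passed as well, in those directions. These comparisons share the MDX_JJ101 arrays. With the slide column as a block, 0 of the 10 and 0 of all genes passed in MDX_JJ101 against MDX_tap by limma, with 5 and 8858 at an unadjusted p under 0.05. In MDX_tap against B10_tap, 0.024% of all genes passed and 0 of the 10; 1 of the 10, *Orai2*, had an unadjusted p under 0.05, as did 4383 of all genes.

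The promoters of *Cacna1s*, *Orai1* and *Ryr1* are shown because *Cacna1s* and the main probe of *Orai1* rose in MDX_JJ101. *Ryr1* was not well above background there, so its level in MDX_JJ101 has only an upper bound. CAGCTG, a palindromic form of the E-box to which myogenic factors such as MyoD bind, was searched on both strands and is in capitals. Each sequence runs from 250 bases before to 50 after the gene's start, from RefSeq (GRCm38.p6): chr1:136052561-136052860 on the plus strand, chr5:123014824-123015123 on the plus strand and chr7:29125102-29125401 on the minus strand, in the order printed.
Cacna1s: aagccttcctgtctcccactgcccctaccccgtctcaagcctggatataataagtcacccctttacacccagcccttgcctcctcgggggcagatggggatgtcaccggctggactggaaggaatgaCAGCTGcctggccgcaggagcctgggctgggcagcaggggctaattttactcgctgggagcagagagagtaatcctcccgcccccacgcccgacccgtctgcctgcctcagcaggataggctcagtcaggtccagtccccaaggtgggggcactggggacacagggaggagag
Orai1: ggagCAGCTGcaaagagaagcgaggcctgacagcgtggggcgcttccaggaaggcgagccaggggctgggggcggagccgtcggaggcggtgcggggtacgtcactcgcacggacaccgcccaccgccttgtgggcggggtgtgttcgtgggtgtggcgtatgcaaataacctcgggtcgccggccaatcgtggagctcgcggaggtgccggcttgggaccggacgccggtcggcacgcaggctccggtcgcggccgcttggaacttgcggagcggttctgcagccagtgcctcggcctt
Ryr1: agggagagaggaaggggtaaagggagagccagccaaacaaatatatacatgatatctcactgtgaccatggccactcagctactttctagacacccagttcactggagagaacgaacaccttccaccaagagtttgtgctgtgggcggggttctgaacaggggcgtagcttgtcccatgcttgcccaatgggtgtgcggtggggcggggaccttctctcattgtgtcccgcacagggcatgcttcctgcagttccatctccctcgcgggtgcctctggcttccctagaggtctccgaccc
The motif stood in the *Cacna1s* and *Orai1* windows and not in the *Ryr1* window. It stood in 3 of the 8 windows found for the 10 genes, the other being that of *Casq1*, and in 16.3% of 32851 windows of mouse genes. A match describes these letters only.

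**Figure D1:**
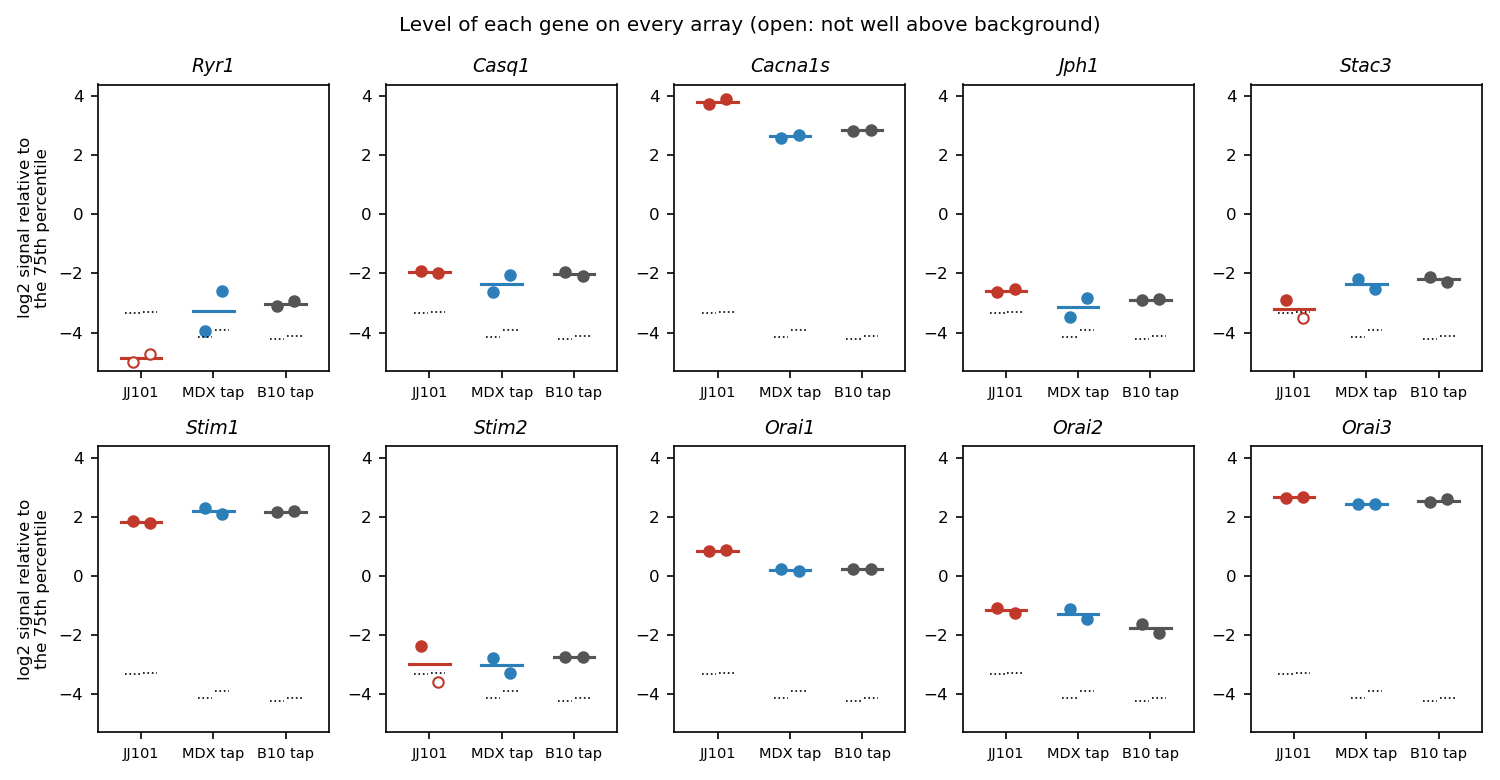
Level of each of the 10 genes on every array (log2 signal relative to the array's 75th percentile, vertical axis of each panel), with the groups MDX_JJ101, MDX_tap and B10_tap from left to right, 1 point per array (open where not well above background), bars for group means and dotted lines for each array's lowest signal called well above background. *Cacna1s* and *Orai1* lay highest in MDX_JJ101, *Stac3* lay lowest there, *Ryr1* was not well above background there, and the other genes differed less between groups.

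*Cacna1s* encodes the pore subunit and voltage sensor of the skeletal muscle L-type calcium channel. Its level was 3.74 and 3.90 in MDX_JJ101, 2.59 and 2.69 in MDX_tap, and 2.83 and 2.86 in B10_tap. Both MDX_JJ101 arrays lay above all others, and the MDX_tap arrays lay a little below the B10_tap arrays. The rise in MDX_JJ101 was 1.18 (SE 0.11, 2.26-fold, adjusted p = 0.0125) over MDX_tap and 0.97 (SE 0.11, 1.96-fold, adjusted p = 0.00955) over B10_tap, while MDX_tap minus B10_tap was -0.21 (SE 0.11, adjusted p = 0.328). A second probe of *Cacna1s* read 1.01 and 1.25 in MDX_JJ101, -0.32 and -0.36 in MDX_tap, and 0.01 and -0.08 in B10_tap, with a difference of 1.47 (SE 0.12, adjusted p = 0.0125) from MDX_tap and 1.17 (SE 0.12, adjusted p = 0.00967) from B10_tap. With the spike-in probes as the scale the main probe differed by 0.72 (SE 0.41, adjusted p = 0.218 by limma) from MDX_tap and 0.48 (SE 0.41, 0.446) from B10_tap. That SE was the same for each of the 10 genes, so the calls ended with a wider error as well as a smaller difference. The median spike-in level also differed within groups, at 3.77 and 4.30 in MDX_JJ101 and 3.34 and 3.81 in MDX_tap. The call against MDX_tap also ended without MDX_tap replicate 2 (1.23, adjusted p = 0.0519), and that against B10_tap without B10_tap replicate 1 (0.95, 0.0748) or 2 (0.98, 0.0700).

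*Stac3* encodes the adaptor that brings the skeletal channel to the membrane and couples it to release. Its level was -2.90 and -3.52 in MDX_JJ101, -2.18 and -2.53 in MDX_tap, and -2.12 and -2.28 in B10_tap. The MDX_JJ101 arrays were the lowest, and 1 of them was well above background. The fall was -0.85 (SE 0.24, adjusted p = 0.0458) against MDX_tap and -1.01 (SE 0.24, adjusted p = 0.0322) against B10_tap; MDX_tap minus B10_tap was -0.16 (SE 0.24, adjusted p = 0.725). Without MDX_JJ101 replicate 2 the differences were -0.54 (adjusted p = 0.118) and -0.70 (0.0748), and with background correction by normexp -0.23 (0.0881) and -0.20 (0.138). The call against MDX_tap ended as well when any array other than MDX_JJ101 replicate 1 was left out, with values of -0.54 to -1.02, and that against B10_tap without B10_tap replicate 1 (-0.93) or 2 (-1.09).

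*Ryr1* encodes the ryanodine receptor of skeletal muscle, the channel that lets calcium out of the store. Its level was -4.99 and -4.72 in MDX_JJ101, -3.95 and -2.59 in MDX_tap, and -3.11 and -2.94 in B10_tap. It was not well above background on either MDX_JJ101 array, and the MDX_tap arrays spanned the B10_tap arrays. The means were -4.86 ± 0.187 in MDX_JJ101, -3.27 ± 0.963 in MDX_tap and -3.02 ± 0.116 in B10_tap (SD, n = 2 each). The MDX_JJ101 level thus has only an upper bound, taken from the lowest signal called well above background on each array. That bound lay 1.03-fold below the mean of MDX_tap and 1.22-fold below that of B10_tap, and no error or test goes with either value. MDX_tap replicate 1 lay below the lowest signal called well above background on the MDX_JJ101 arrays (-3.33 and -3.29), so the bound against MDX_tap rests on MDX_tap replicate 2, and without that array no lower level in MDX_JJ101 than in MDX_tap was measured. MDX_tap minus B10_tap was -0.25 (SE 0.44, adjusted p = 0.769), and 0.43 without MDX_tap replicate 1. The fitted difference from MDX_tap, on MDX_JJ101 levels not well above background, was -1.58 (adjusted p = 0.0438 by limma). It was -0.90 without MDX_tap replicate 2, -2.27 without MDX_tap replicate 1, -0.17 (adjusted p = 0.319) with normexp and -0.30 (0.200) in the authors' table. Against B10_tap the fitted difference was -1.83 (adjusted p = 0.0328 by limma), with -0.21 (0.238) by normexp and -0.34 (0.158) in the authors' table. Leaving out either MDX_JJ101 array or either B10_tap array also ended both calls.

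The limb muscle markers stand beside these values. Of 14 tested, 6 were well above background on every array, and of these 2 fell and 2 rose in MDX_JJ101 against MDX_tap (median -0.95), and 3 fell and 1 rose against B10_tap (median -1.27). Another 6, among them the myosin heavy chains *Myh1*, *Myh2* and *Myh4*, were above background on neither MDX_JJ101 array and were tested through the tap water groups alone, so their levels in MDX_JJ101 have only an upper bound. The summed limb muscle signal was lowest on the 2 MDX_JJ101 arrays, and over the tap water arrays it was, like *Ryr1*, lowest on MDX_tap replicate 1 and highest on MDX_tap replicate 2. *Stac3* ran the other way within MDX_tap, at -2.18 on replicate 1 and -2.53 on replicate 2. The part of limb muscle RNA in the *Ryr1* and *Stac3* values was not tested. Of 12 heart markers tested, all well above background on every array, 5 were higher and 0 lower in MDX_JJ101 against MDX_tap (median 0.40), and their part in the rise of *Cacna1s* was not tested either.

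**Figure D2:**
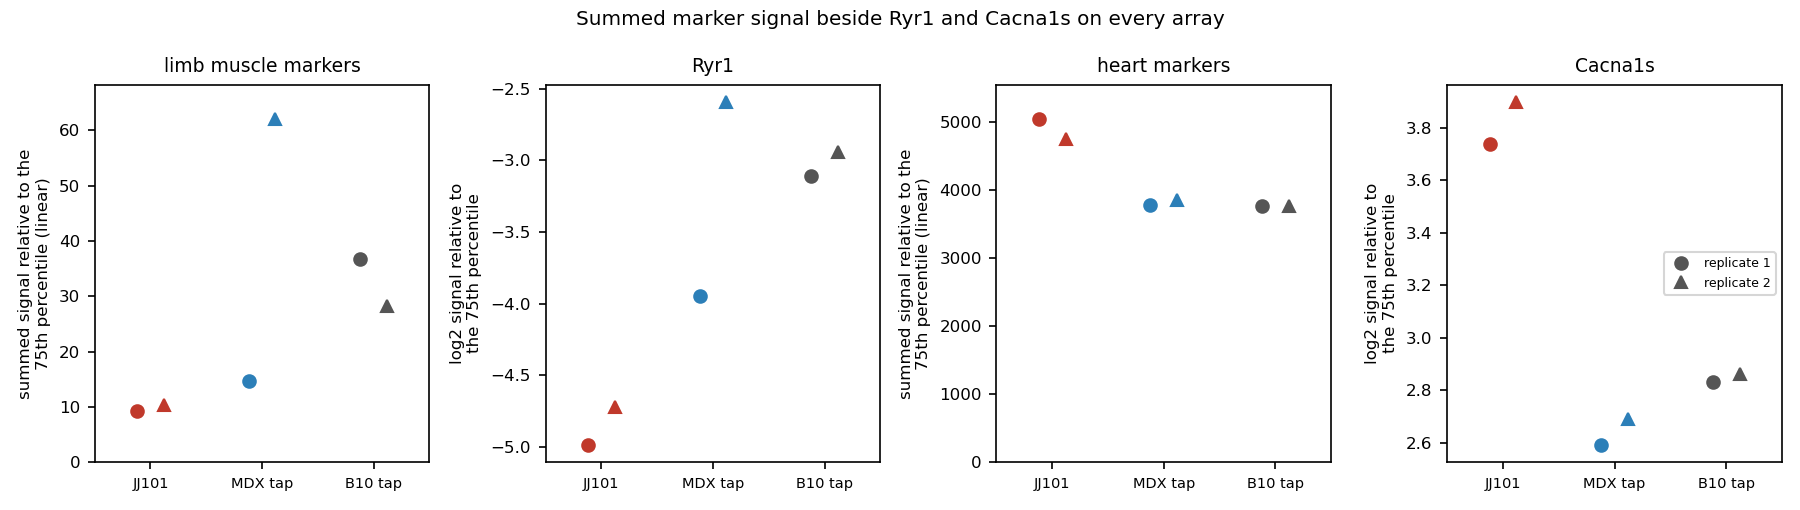
Summed signal of the limb muscle and heart markers (linear, relative to the array's 75th percentile) beside the log2 levels of *Ryr1* and *Cacna1s* on every array, with 1 point per array and the groups MDX_JJ101, MDX_tap and B10_tap from left to right. The limb muscle sum was lowest on both MDX_JJ101 arrays, where *Ryr1* was not well above background, and both were highest on MDX_tap replicate 2, while heart markers and *Cacna1s* were highest on both MDX_JJ101 arrays.

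*Jph1* encodes a junctophilin, which ties the store membrane to the transverse tubule. Its level was -2.63 and -2.53 in MDX_JJ101, -3.46 and -2.84 in MDX_tap, and -2.91 and -2.86 in B10_tap. The MDX_JJ101 arrays lay above the others, but the difference did not pass, at 0.57 (SE 0.22, adjusted p = 0.0933) from MDX_tap and 0.31 (SE 0.22, adjusted p = 0.308) from B10_tap. The *Jph1* probe was dim. Its mean lay 0.73 above the lowest signal called well above background in MDX_JJ101, 0.87 in MDX_tap and 1.29 in B10_tap. So measured, MDX_JJ101 was not the highest group, and with normexp the difference from MDX_tap was 0.23. *Casq1*, which encodes the skeletal calsequestrin that buffers calcium inside the store, read -1.91 and -1.97 in MDX_JJ101, -2.64 and -2.06 in MDX_tap, and -1.94 and -2.09 in B10_tap. MDX_tap replicate 1 was the lowest array for *Jph1* and for *Casq1*. MDX_JJ101 minus MDX_tap was 0.41 for *Casq1* (95% interval -0.12 to 0.94, adjusted p = 0.175), and MDX_JJ101 minus B10_tap was 0.08 (-0.46 to 0.61, adjusted p = 0.792).

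*Stim1* and *Stim2* encode the calcium sensors of the store membrane. *Stim1* read 1.87 and 1.78 in MDX_JJ101, 2.29 and 2.10 in MDX_tap, and 2.15 and 2.20 in B10_tap. The MDX_JJ101 arrays lay below all others and the remaining groups overlapped, with a difference of -0.37 (SE 0.11, adjusted p = 0.0560) from MDX_tap and -0.35 (SE 0.11, adjusted p = 0.0649) from B10_tap, so neither passed. Both passed with normexp and quantile normalization (-0.50, adjusted p = 0.00931, and -0.49, 0.0128), in the authors' table (-0.52, 0.0123, and -0.50, 0.0159) and over probes well above background on all arrays (0.0368 and 0.0469). A second *Stim1* probe differed by -0.23 (SE 0.12) from MDX_tap and -0.32 (SE 0.12) from B10_tap. *Stim2* read -2.37 and -3.59 in MDX_JJ101, -2.77 and -3.28 in MDX_tap, and -2.73 and -2.76 in B10_tap. The MDX_JJ101 arrays of *Stim2* spanned all others and 1 of them was well above background, so that a difference from MDX_tap anywhere between -1.01 and 1.11 (95% interval around 0.05, adjusted p = 0.935) was left by these arrays.

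*Orai1*, *Orai2* and *Orai3* encode the pore proteins of store-operated entry, and *Orai1* is the one that STIM1 opens in skeletal muscle. The main *Orai1* probe read 0.83 and 0.87 in MDX_JJ101, 0.24 and 0.17 in MDX_tap, and 0.22 and 0.24 in B10_tap. Both MDX_JJ101 arrays lay above the others by far more than the replicates differed, and MDX_tap and B10_tap overlapped. The rise was 0.65 (SE 0.09, 1.57-fold, adjusted p = 0.0133) over MDX_tap and 0.62 (SE 0.09, 1.54-fold, adjusted p = 0.0136) over B10_tap. A second *Orai1* probe did not show it. That probe read -0.45 and -0.44 in MDX_JJ101, -0.46 and -0.49 in MDX_tap, and -0.86 and -0.70 in B10_tap, and it differed by 0.03 (SE 0.11, adjusted p = 0.848) from MDX_tap and 0.33 (SE 0.11, adjusted p = 0.0688) from B10_tap. With spike-in scaling the main probe differed by 0.18 (SE 0.41, adjusted p = 0.812 by limma) from MDX_tap and 0.13 (SE 0.41, 0.869) from B10_tap. The call against MDX_tap also ended without MDX_tap replicate 1 (0.68, 0.0506) or 2 (0.61, 0.0532), and that against B10_tap without B10_tap replicate 1 (0.61, 0.0993) or 2 (0.64, 0.0873).

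*Orai2* read -1.07 and -1.27 in MDX_JJ101, -1.11 and -1.46 in MDX_tap, and -1.64 and -1.92 in B10_tap, so both MDX groups lay above B10_tap. MDX_tap minus B10_tap was 0.49 (SE 0.18, unadjusted p = 0.0366, adjusted p = 0.212 by limma over all genes), and MDX_JJ101 minus B10_tap was 0.61 (SE 0.18, adjusted p = 0.0504), which passed with median centring (0.63, adjusted p = 0.0450) and over probes well above background on all arrays (0.0308). A second *Orai2* probe differed by -0.57 (SE 0.18, adjusted p = 0.0615) in MDX_JJ101 minus MDX_tap, where the first differed by 0.12 (SE 0.18, adjusted p = 0.624), by 0.53 (SE 0.18, adjusted p = 0.208) in MDX_tap minus B10_tap and by -0.04 (SE 0.18, adjusted p = 0.865) in MDX_JJ101 minus B10_tap. *Orai3* read 2.65 and 2.68 in MDX_JJ101, 2.42 and 2.44 in MDX_tap, and 2.49 and 2.61 in B10_tap. The MDX_JJ101 arrays were the highest by a small margin, 0.24 (SE 0.10, adjusted p = 0.112) over MDX_tap and 0.12 (SE 0.10, adjusted p = 0.371) over B10_tap. Which part of a transcript each probe reads is not given in the array files used here.

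**Figure D3:**
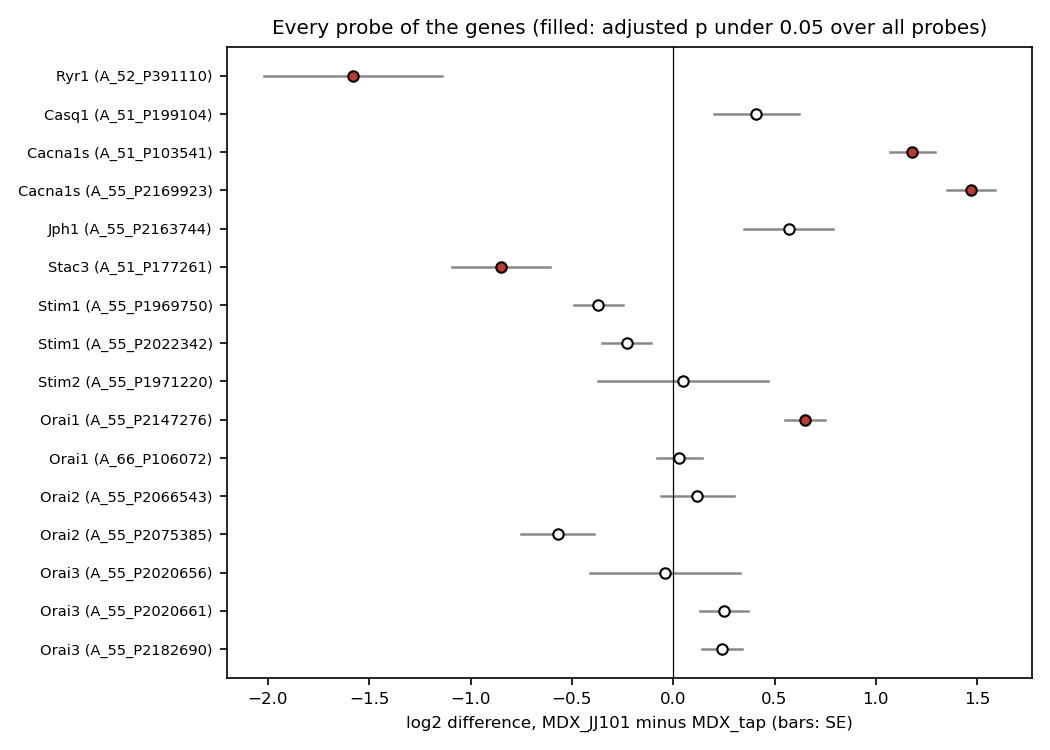
Log2 difference in MDX_JJ101 minus MDX_tap of each of the 16 probes (horizontal axis, points with bars for 1 SE; filled where the adjusted p over all probes is under 0.05), with 1 row per probe. Both *Cacna1s* probes lay right of 0, at 1.18 and 1.47, whereas the *Orai1* probes lay at 0.65 and 0.03 and the *Orai2* probes at 0.12 and -0.57.

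**Figure D4:**
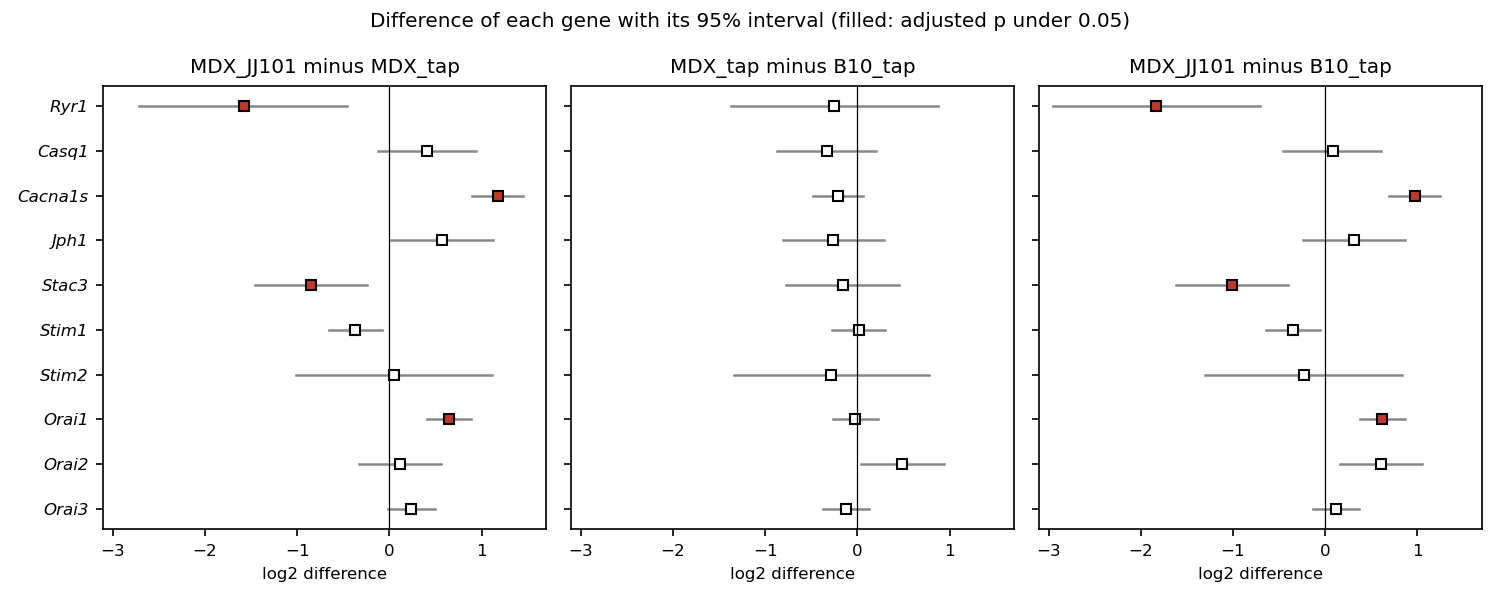
Log2 difference of each of the 10 genes in MDX_JJ101 minus MDX_tap, MDX_tap minus B10_tap and MDX_JJ101 minus B10_tap, with squares for the difference, bars for its 95% interval and filled squares for an adjusted p under 0.05. *Cacna1s* and *Orai1* lay right of 0 and *Ryr1* and *Stac3* left of it in both comparisons with MDX_JJ101, and no square is filled in MDX_tap minus B10_tap. The *Ryr1* squares in the comparisons with MDX_JJ101 rest on levels there that were not well above background.

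The heart relatives of the skeletal genes were measured in the same RNA. *Ryr2*, the heart ryanodine receptor, read 4.51 and 4.88 in MDX_JJ101, 3.97 and 4.43 in MDX_tap, and 4.14 and 4.30 in B10_tap, with a difference of 0.50 (SE 0.21, adjusted p = 0.117) from MDX_tap. *Casq2*, the heart calsequestrin, rose over MDX_tap by 0.46 (SE 0.12, adjusted p = 0.0335), and *Jph2*, the heart junctophilin, by 1.07 (SE 0.23, adjusted p = 0.0242). Over B10_tap neither passed limma's test, at 0.33 (adjusted p = 0.0795) for *Casq2* and 0.54 (adjusted p = 0.126) for *Jph2*. MDX_tap minus B10_tap was -0.14 for *Casq2* and -0.54 for *Jph2*, which did not pass either. *Cacna1c*, the pore subunit of the heart channel, stood at -1.64 and -0.86 in MDX_JJ101, -2.21 and -1.89 in MDX_tap, and -1.71 and -1.80 in B10_tap, a difference of 0.80 (SE 0.28, adjusted p = 0.0753) from MDX_tap. Where *Ryr1* was at or near background, *Ryr2* was well above background on every array and did not pass the test.

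Of 60 other genes of calcium release, refilling, entry and calcineurin signalling, 58 were on the array and 52 were tested. In MDX_JJ101 against MDX_tap 17 rose (32.7%) and 1 fell (1.92%), with a median of 0.27 and 36 differences above 0, beside 19.9% higher and 16.1% lower and a median of 0.00 over all genes. In MDX_JJ101 against B10_tap 11 rose (21.2%) and 2 fell (3.85%), beside 16.2% and 17.4% of all genes. These shares do not compare genes of like brightness, as 48 of the 52 were well above background on all 6 arrays. Over probes that were so on all 6 arrays, 4815 of 17140 genes rose and 2904 fell against MDX_tap, with 20 and 3 of the pathway genes. Against B10_tap 4018 of the 17140 rose and 2638 fell, with 11 and 3 of the pathway genes. Set against the 48 pathway genes of this brightness, the share that rose over B10_tap was near that of all genes. The share that fell was smaller. In MDX_tap against B10_tap 0 of the 52 passed limma's test and 9 had an unadjusted p under 0.05, with a median of -0.07. With spike-in scaling, which put the median of all genes at -0.46 in MDX_JJ101 against MDX_tap, 68 of all genes passed higher and 3814 lower, and of the 52 genes 0 passed higher and 2 lower (median -0.20). Of the 17 genes that rose, 3 then had a negative difference, namely *Asph*, *S100a1* and *Tmem38b*; of the 11 that rose over B10_tap, *Cav3*, *Hrc* and *Nfatc2* did.

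Of the 17 rises in MDX_JJ101 against MDX_tap, 12 belonged to genes of the triad and the store. Of 9 triad and membrane genes tested, 7 rose and 0 fell: *Speg*, a kinase of the triad, by 1.36 (SE 0.14, adjusted p = 0.0128), and *Tmem38a*, a counter-ion channel of the store, by 0.80 (SE 0.14, adjusted p = 0.0160), with *Jph2*, *Sypl2*, *Cav3*, *Dysf* and *Tmem38b*. Of 7 store and junction genes, 5 rose: *Hrc*, a histidine-rich calcium-binding protein, by 0.61 (SE 0.13, adjusted p = 0.0224), *Srl*, the store protein sarcalumenin, by 0.71 (SE 0.17, adjusted p = 0.0292), and *Casq2*, *Asph* and *Jsrp1*. *Atp2a1*, the calcium pump of fast skeletal fibres, read 3.98 and 4.43 in MDX_JJ101, 2.85 and 2.87 in MDX_tap, and 3.36 and 3.30 in B10_tap. It rose by 1.34 over MDX_tap (SE 0.17, 2.54-fold, adjusted p = 0.0128) and was the only one of 5 pump genes that passed there. *Cacnb1*, the beta subunit that accompanies *Cacna1s* in skeletal muscle, rose by 0.89 (SE 0.19, adjusted p = 0.0239).

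Among release channel relatives *Itpr1*, an inositol trisphosphate receptor, was the one of 4 genes that passed and fell by 0.71 (SE 0.12, adjusted p = 0.0151). Of 6 other genes of store-operated entry and TRPC channels, *Saraf*, which shuts store-operated entry down, was the one that passed and rose by 0.55 (SE 0.16, adjusted p = 0.0473). *S100a1*, which modulates the release channel, rose by 0.38 (SE 0.10, adjusted p = 0.0371), and stood at -0.081 with spike-in scaling. *Rcan1*, an inhibitor of calcineurin whose transcript NFAT induces, was the one of 10 calcineurin and NFAT genes that passed. It read 3.73 and 3.52 in MDX_JJ101, 2.87 and 2.92 in MDX_tap, and 2.18 and 2.36 in B10_tap, so the 3 groups did not overlap. *Rcan1* rose by 0.73 over MDX_tap (SE 0.12, adjusted p = 0.0155) and by 1.35 over B10_tap (SE 0.12, 2.55-fold, adjusted p = 0.00810), and MDX_tap minus B10_tap was 0.63 (SE 0.12, adjusted p = 0.110). In MDX_JJ101 against B10_tap the other named genes that passed were *Sypl2* at 1.12, *Cacnb1* at 1.03, *Speg* at 1.02, *Jsrp1* at 0.98, *Atp2a1* at 0.87, *Srl* at 0.70, *Tmem38a* at 0.59, *Hrc* at 0.48, *Nfatc2* at 0.44 (-0.055 with spike-in scaling) and *Itpr1* at -0.51. *Cav3* rose and passed there as well, and *Trdn*, a store and junction gene, fell and passed. *Sypl2* was dim, at -2.58 and -2.71 in MDX_JJ101, -3.16 and -3.38 in MDX_tap, and -3.85 and -3.67 in B10_tap. The lowest signal called well above background was -3.33 and -3.29 in MDX_JJ101, -4.14 and -3.90 in MDX_tap, and -4.23 and -4.13 in B10_tap. *Sypl2* thus lay near this limit in each group. The limit was highest in MDX_JJ101, and its part in the *Sypl2* rise was not tested. Of the 52 genes, 0 passed against MDX_tap by limma without MDX_tap replicate 2 (27 at an unadjusted p under 0.05), where *Speg* was 1.44 (adjusted p = 0.0519) and *Rcan1* 0.76 (0.0569). Of the 18 calls against MDX_tap, 1 held without MDX_tap replicate 1, 9 and 7 without MDX_JJ101 replicate 1 and 2, and 5 without either B10_tap replicate. Of the 13 calls against B10_tap, 0 held without B10_tap replicate 1 or 2 (11 of the 52 genes at an unadjusted p under 0.05 in each case), 7 and 6 without MDX_JJ101 replicate 1 and 2, and 11 without either MDX_tap replicate.

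**Figure D5:**
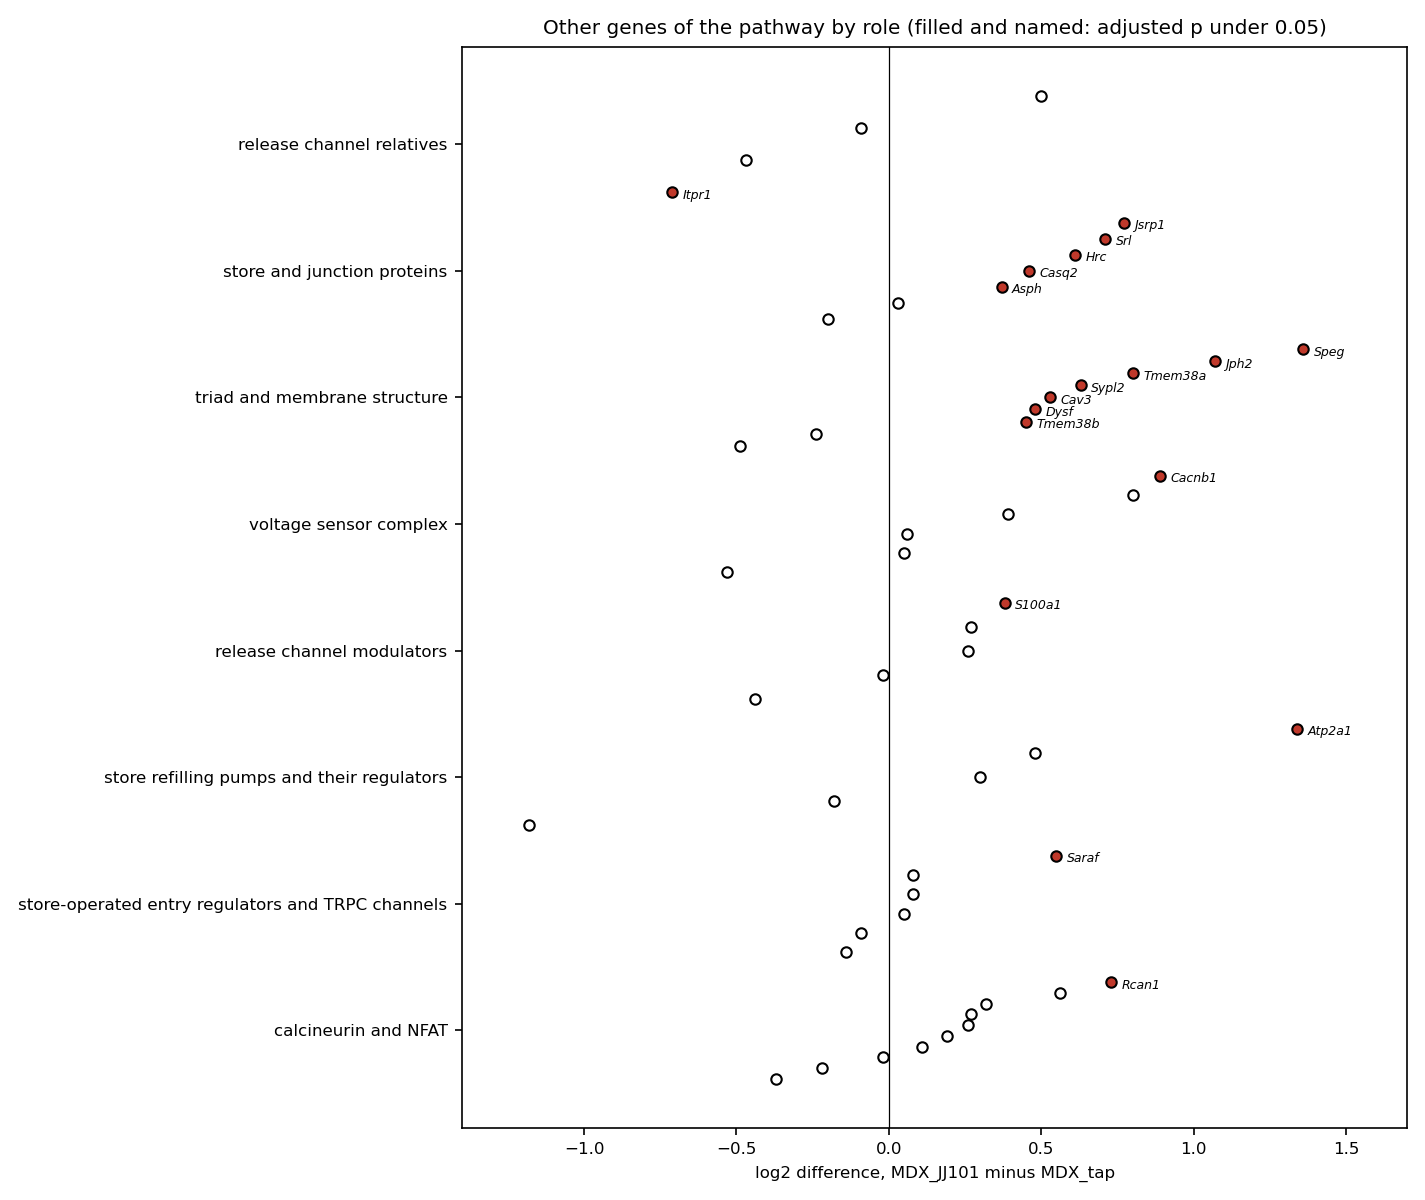
Log2 difference in MDX_JJ101 minus MDX_tap of the 52 tested pathway genes by role, with 1 point per gene and those with an adjusted p under 0.05 filled and named. Triad and store genes lay mostly right of 0, with *Speg* at 1.36 and *Atp2a1* at 1.34 farthest to the right among the filled points, and *Itpr1* was the filled point left of 0.

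Other cell types also differed between groups. The summed macrophage signal was 83.7 and 63.9 in MDX_JJ101, 158.0 and 111.0 in MDX_tap, and 74.6 and 71.8 in B10_tap, and 7 of 11 macrophage markers fell in MDX_JJ101 against MDX_tap. Endothelial markers summed to 46.0 and 39.6 in MDX_JJ101, 67.9 and 67.0 in MDX_tap, and 64.3 and 60.5 in B10_tap, and 5 of 6 fell in MDX_JJ101 against MDX_tap. Fibroblast markers summed to 354.0 and 240.0 in MDX_JJ101, 645.0 and 698.0 in MDX_tap, and 451.0 and 429.0 in B10_tap, and 3 of 6 fell in MDX_JJ101 against MDX_tap. *Stim1*, *Orai2* and *Itpr1* are also used by immune and other cells, and the part of these cells in their values was not tested.

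The genes whose pattern over the 6 arrays was most like that of *Ryr1*, by the root mean square difference of centred log2 levels, were *Hfm1* (0.227), *Mylk2* (0.252) and *Chl1* (0.281), which were well above background on 3, 4 and 4 arrays. On both MDX_JJ101 arrays these genes, like *Ryr1*, lay below the lowest signal called well above background, so their likeness there is one of unmeasured levels. Those most like *Stim1* were *Atp6v0e* (0.023), *Pcsk6* (0.037) and *Cyb5a* (0.039), each well above background on all 6. *Mylk2*, the myosin light chain kinase of skeletal muscle, read -3.66 and -3.76 in MDX_JJ101, -2.93 and -1.86 in MDX_tap, and -2.33 and -2.41 in B10_tap, with its highest array in MDX_tap replicate 2, as for *Ryr1*.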

How the data were processed

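The authors deposited scanner intensity values from Agilent Feature Extraction 11.5.1.1, as the submitters' processing notes record. Per the file headers, the processed signal comes with a background-subtracted signal, and 0 or 1 flags mark saturated spots, outliers and spots well above background. The authors' deposited table is on the log2 scale: its columns rank as the median spot signal (Spearman correlation of 1 on each array) and have medians of 5.68 to 5.69, so it is not centred per gene.

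Levels were computed as log2 of the processed signal minus the 75th percentile over 59305 non-control spots, without outlier spots. Probes were named through RefSeq accessions of a gene table (GRCm38.p6): 27656 of 55681 had a symbol and 28025 had none. A probe was kept if both arrays of some group called it well above background (27260), and the brightest stood for its gene. limma 3.58.1 in R 4.3.3 fitted the 3 groups together (3 residual and 2.21 prior degrees of freedom), two-sided, with Benjamini-Hochberg adjustment over 20870 genes and transcripts at a threshold of 0.05, after the steps were tested on simulated data. The adjusted p of a second probe comes from a fit over all probes kept. With 2 arrays a group, the number of arrays limits the precision, and no spot was saturated (0 on each array).

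Members, lists and tests were chosen with earlier results of these data known. By the rule for named genes the text names the 10 genes, *Dmd*, 4 heart relatives, up to 2 called genes of each pathway role with the smallest p, and the 3 genes most like *Ryr1* and *Stim1*; 1 gene that the rule names is not reported here, and further called genes listed without values were named after their values were seen. The alternatives were another background correction with quantile normalization (normexp with an offset of 50, on the median signal, since the files used here give no mean signal), median centring, scaling to 7 spike-in probes, the authors' table, other filters, the mean of a gene's probes, fits of 2 groups, blocks for replicate number and slide column, and leaving out each array.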

Additional observations from a re-analysis of the deposited data

How the results depend on the processing

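Under the 11 kinds of alternative *Cacna1s* and *Orai1* did not change direction in MDX_JJ101 against MDX_tap. The fitted *Ryr1* and *Stac3* differences stayed negative where tested, but neither was tested over probes well above background on all 6 arrays. The sign for *Ryr1* rests on MDX_JJ101 levels not well above background. In MDX_tap against B10_tap 0 of the 10 genes passed in any setting. The count of called genes fell to 2 against MDX_tap and 2 against B10_tap with spike-in scaling, to 2 against MDX_tap without a filter and with only the 2 groups fitted, and to 0 against MDX_tap with the slide column as a block (5 at an unadjusted p under 0.05, and 0 of all genes with 8858 at an unadjusted p under 0.05, by limma). Leaving out 1 array gave 0 to 3 against MDX_tap and 0 to 4 against B10_tap; the counts of 0 came without MDX_tap replicate 2 (7 at an unadjusted p under 0.05), where 48 of all genes passed, and without B10_tap replicate 1 or 2 (5 and 4). Without a filter 13640 of all genes and transcripts passed in MDX_JJ101 against MDX_tap. The replicate block gave 4 genes against MDX_tap and 5 against B10_tap, where *Orai2* passed as well (0.61, adjusted p = 0.0297). Replicate numbers are not shown to pair arrays: the correlation of replicate differences was 0.163 between MDX_JJ101 and MDX_tap, -0.064 between MDX_JJ101 and B10_tap and -0.031 between MDX_tap and B10_tap. In the spike-in fit each of the 10 genes had the same SE of 0.41, so its calls do not rest on each gene's own spread. The causes of these moves were not tested further, beyond fewer arrays or residual degrees of freedom in the blocked and reduced fits.

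Differences below the test's reach turned sign in some settings. With spike-in scaling, MDX_JJ101 minus MDX_tap was -0.052 for *Casq1*, -0.41 for *Stim2*, -0.35 for *Orai2*, -0.23 for *Orai3* and, though called otherwise, -0.081 for *S100a1*; MDX_JJ101 minus B10_tap was -0.41 for *Casq1*, -0.18 for *Jph1*, -0.37 for *Orai3*, -0.012 for *Ryr2*, -0.16 for *Casq2* and, though called otherwise, -0.055 for *Nfatc2*; and MDX_tap minus B10_tap was -0.014 for *Stim1*. With normexp, *Stac3* was 0.030 in MDX_tap minus B10_tap and *Orai3* -0.034 in MDX_JJ101 minus B10_tap, and by the authors' values they were 0.030 and -0.033. With the mean of all probes, MDX_tap minus B10_tap was -0.035 for *Stim1*, 0.14 for *Orai1* and 0.062 for *Orai3*, and MDX_JJ101 minus MDX_tap was -0.23 for *Orai2*. The ranges over leaving out 1 array that held a change of sign were, for MDX_JJ101 minus MDX_tap, *Stim2* -0.56 to 0.66 and *Orai2* -0.056 to 0.29; for MDX_tap minus B10_tap, *Ryr1* -0.93 to 0.43, *Jph1* -0.58 to 0.051, *Stac3* -0.34 to 0.014, *Stim1* -0.081 to 0.11, *Orai1* -0.061 to 0.015 and *Ryr2* -0.25 to 0.21; for MDX_JJ101 minus B10_tap, *Stim2* -0.84 to 0.38. Signal over background limits *Ryr1*, *Stac3* and *Stim2*, whose MDX_JJ101 signal was near or below the lowest called level. It also limits *Jph1*, which was dim though well above background on every array.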
